A study of Mus musculus with 4 samples.

Results

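The genes described here are 9 members of the BCL2 family: Bcl2, Mcl1, Bcl2l1, Bax, Bak1, Bcl2l11, Bid, Pmaip1 and Bbc3. They were taken by symbol from the 32285 gene rows of the count matrices, and each symbol matched 1 row. RNA and barcoded surface antibodies were counted together (CITE-seq, 10x Genomics 3′ chemistry) in single mouse bone marrow cells that carried CD45.2, an allele of a leukocyte surface protein used to follow transplanted cells, and Kit, the stem cell factor receptor of blood progenitors. All 4 groups were sampled 10 weeks after transplantation, with 1 library each: control, Mll3SI, Mll4SI and Mll3/4SI. MLL3 and MLL4 are the histone methyltransferases encoded by Kmt2c and Kmt2d. What SI stands for, the strain, age and sex of the animals, and how many were pooled per library are not given in the sources used here. The series title addresses what MLL3 and MLL4 do in blood stem cells and myeloid cells, and the comparisons below set each of the 3 other libraries against control.

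BCL2 family proteins decide at the outer mitochondrial membrane whether a cell enters apoptosis. Bcl2, Mcl1 and Bcl2l1 (BCL-XL) encode survival proteins that bind and restrain the others. Bax and Bak1 encode the effectors that open pores in the membrane and release cytochrome c. Bcl2l11 (BIM), Bid, Pmaip1 (NOXA) and Bbc3 (PUMA) encode BH3-only proteins, which occupy the survival proteins or activate the effectors. Pmaip1, Bbc3 and Bax are textbook targets of the transcription factor p53. In bone marrow, Mcl1 is known for its requirement in stem cells and granulocytes, Bcl2l1 for the survival of erythroid cells, and Bcl2 for the survival of lymphocytes.

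In the GRCm38 annotation Bcl2 spans 176097 bases of chromosome 1 (106538178 to 106714274, minus strand), by far a longer locus than Bax (5202 bases, chromosome 7, 45461697 to 45466898, minus strand) or Mcl1 (4389 bases, chromosome 3, 95658788 to 95663176, plus strand). Whether reads from introns were counted is not given in the sources used here. Levels are therefore compared between cells for 1 gene, never between genes. A difference in intron share between classes or libraries would still enter such comparisons, above all for a long gene such as Bcl2, and was not tested. Windows of the RefSeq promoter table (GRCm38.p6) were searched for 8 of the members, all but Pmaip1. The 250 bases upstream of the transcription start are printed for Bcl2, Bax and Bid, the 3 members with the lowest log2 ratio to control in granulocyte-like cells of the Mll3/4SI library. Each is written 5′ to 3′ on the strand of the gene, with matches to a searched motif in capitals. They lie at chr1:106714291-106714540 for Bcl2, chr7:45466899-45467148 for Bax and chr6:120916825-120917074 for Bid, all on the minus strand.

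Bcl2: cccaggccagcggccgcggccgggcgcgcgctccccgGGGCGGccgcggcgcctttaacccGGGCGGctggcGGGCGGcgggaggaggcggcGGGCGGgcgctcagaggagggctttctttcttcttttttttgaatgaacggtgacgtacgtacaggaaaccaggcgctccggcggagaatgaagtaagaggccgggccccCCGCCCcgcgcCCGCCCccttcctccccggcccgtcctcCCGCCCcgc
Bax: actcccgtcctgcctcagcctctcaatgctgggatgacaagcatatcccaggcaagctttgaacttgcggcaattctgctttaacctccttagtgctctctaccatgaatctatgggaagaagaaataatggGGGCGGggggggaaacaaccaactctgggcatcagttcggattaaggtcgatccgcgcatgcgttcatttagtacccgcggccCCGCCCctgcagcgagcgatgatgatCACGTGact
Bid: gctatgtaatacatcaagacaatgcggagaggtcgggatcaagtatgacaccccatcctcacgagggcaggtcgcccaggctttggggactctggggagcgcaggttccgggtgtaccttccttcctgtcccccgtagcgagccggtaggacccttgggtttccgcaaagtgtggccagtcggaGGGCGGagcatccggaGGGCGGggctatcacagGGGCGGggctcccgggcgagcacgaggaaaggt

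Motifs were searched on both strands. The GC box was GGGCGG and the E-box was CACGTG. The ETS site was CCGGAAGT. For the TATA box the letters were TATAAA, and those of the other promoter box searched were CCAAT. The Bcl2 window held 7 GC boxes and had a GC content of 74.8%, against a median of 52.4% over the 32851 promoter windows of that length. The Bid window held 3 GC boxes (63.6% GC), and the Bax window held 2 and an E-box (54% GC). None of the 3 windows held a TATA box, a CCAAT box or the ETS site. Of all windows, 32.7% held a GC box, 33.8% a CCAAT box, 12.4% a TATA box, 6.02% an E-box and 2.88% the ETS site. These matches describe letters only. Neither methylation nor binding of a factor was measured.

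The 4 libraries gave 6743 to 10186 kept cells with median totals of 12800 to 19185 gene UMIs (unique molecular identifiers, each 1 counted RNA molecule). Any 2 libraries shared 0.137% to 0.311% of their kept barcodes. Kmt2c was at 130, 110, 147 and 123 counts per 1000000 UMIs (CPM) in control, Mll3SI, Mll4SI and Mll3/4SI. It was lower in Mll3SI and Mll3/4SI than in the others. Kmt2d was at 41.3, 38.0, 35.1 and 33.3 CPM in the same order, lowest in Mll4SI and Mll3/4SI. These gaps were not tested, and 3′ tags do not show whether a coding change is present. The libraries also differed in sex genes. Xist was at 0.0315 CPM in control and 0.194 in Mll3SI, but at 1148 in Mll4SI and 1360 in Mll3/4SI, and Eif2s3y went the other way (63.3, 62.0, 0 and 0 CPM). Animal and library cannot be told apart from the label in any comparison below. Nor can sex in those of Mll4SI and Mll3/4SI, while these genes gave no difference in sex between control and Mll3SI. All 3 comparisons also share the control library.

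Cells were clustered without the 9 members and named from fixed markers. HSC/MPP-like cells (stem cells and multipotent progenitors) numbered 692, 704, 577 and 304 (control, Mll3SI, Mll4SI, Mll3/4SI). Granulocyte-like cells, the largest class, numbered 4230, 5155, 7834 and 3484, and monocyte-like cells 660, 941, 814 and 275. Levels are CPM of the pooled UMIs of a class in a library, given in the order control, Mll3SI, Mll4SI, Mll3/4SI where 4 stand together, with exact Poisson 95% intervals that cover counting error only. With 1 library per group there is no spread between animals to set a difference against and no test. A member is called higher or lower where its CPM + 1 differed more than 1.5-fold from control, among genes with a mean of at least 5 CPM over the 4 libraries of the class. Intervals of log2 ratios, in brackets, were taken without the added 1.

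Bcl2, the first of the survival genes, differed widely between the classes. HSC/MPP-like cells had Bcl2 at 371 CPM in control (361 to 380) and at 414, 385 and 307 in the other libraries. Monocyte-like cells had 222, 229, 271 and 191 CPM in the same order, and erythroid-like cells 128, 157, 154 and 124. Granulocyte-like cells had 23.2, 25.7, 16.7 and 11.4 CPM. The ranges of these 4 classes over the libraries did not overlap, so the order from HSC/MPP-like to granulocyte-like cells was the same in each library. Bcl2 was also one of the 10 leading genes of HSC/MPP-like cluster 9, although it was not used for clustering; this contrast is a description, because the cells were grouped by other genes measured in them.

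Small classes, with under 50 cells in a library, were described after their values were seen, and 1 of them held the highest Bcl2 in each library. The 12 to 47 T/NK-like cells per library, mature lymphocytes by their markers, had Bcl2 at 1423 (1248 to 1616), 1889, 1402 and 633 CPM (561 to 711). The Mll3/4SI value was below the interval of each other library. A single cell held 54 of the 238 UMIs in control and 31 of the 281 in Mll3/4SI, a spread between cells that these intervals leave out. The 37 to 182 B-lymphoid-like cells had 38.0, 37.9, 96.7 and 33.9 CPM, with Mll4SI above the other 3. Dendritic-like cells had 42.3, 108, 56.1 and 103 CPM in 14 to 37 cells. Intervals overlap between values next to each other in size, but not between control and Mll3SI. The Mll3/4SI value rests on 23 UMIs in 3 of 16 cells, with 20 in a single cell. 

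**Figure D1:**
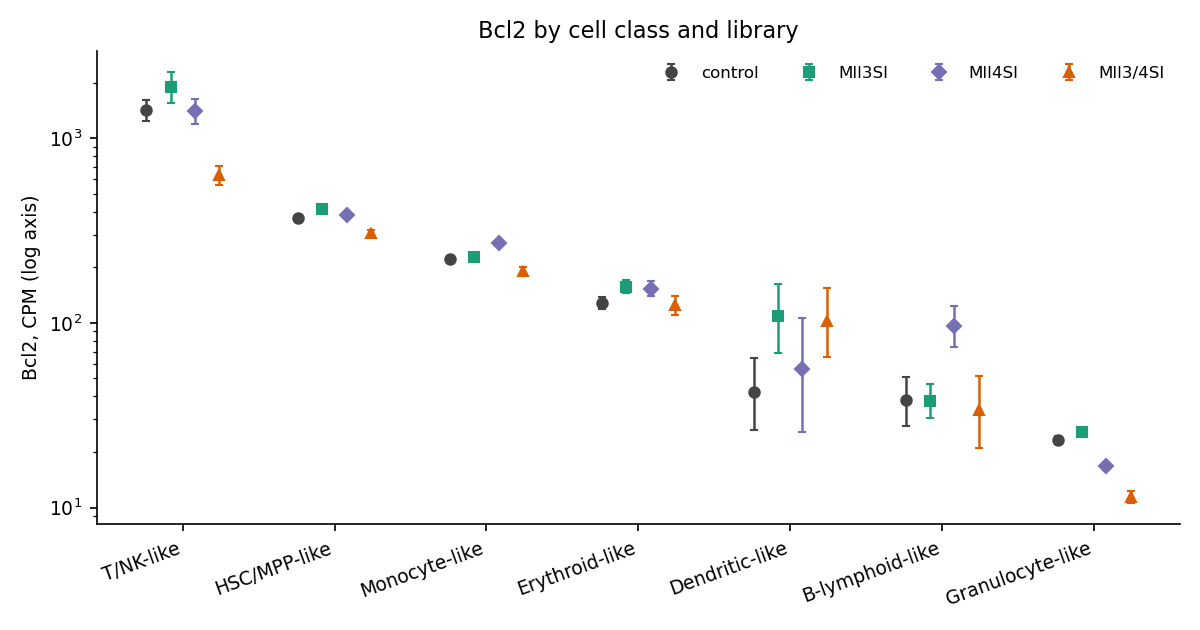
Bcl2 in CPM (log axis) in 7 named cell classes, 1 point per library with its exact Poisson 95% interval. T/NK-like cells lie highest, at 633 to 1889 CPM, and granulocyte-like cells lowest, at 11.4 to 25.7 CPM.

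In HSC/MPP-like cells no member passed 1.5-fold in any comparison. Of the 8 members read, 0 were called in Mll3SI, where 1.51% of the 10109 genes read were called in either direction. In Mll4SI the count was 0 beside a background of 4.92%, and in Mll3/4SI 0 beside 3.65%. The median log2 ratio of the 8 members was 0.07, −0.07 and −0.11 in the 3 comparisons, against 0.01, −0.00 and −0.05 over all genes read. Bcl2 in Mll3/4SI differed from control by −0.27 on the log2 scale [−0.34 to −0.21], and Bax in Mll3SI by 0.28 [0.19 to 0.38]. Both intervals leave out 0, and both sizes are under the 1.5-fold limit. Granulocyte marker RNA, which includes Mpo and Elane of early progenitors, summed to 6884, 7850, 18598 and 9255 CPM in HSC/MPP-like cells, with 0 of its 16 markers at 0; its part in the values was not tested.

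The other survival genes stayed closer to control. Mcl1 was at 101, 109, 94.9 and 94.6 CPM in HSC/MPP-like cells, at 98.2, 103, 114 and 95.3 in granulocyte-like cells and at 101, 109, 117 and 106 in monocyte-like cells. No Mcl1 ratio to control in these 3 classes was larger than 0.21 in size. Its high class was the dendritic-like cells, at 325, 339, 280 and 313 CPM, above every larger class in each library. Bcl2l1 was ordered differently from Bcl2, highest in granulocyte-like and lowest in monocyte-like cells of the 3 large classes in each library. HSC/MPP-like cells had 14.4, 12.8, 14.6 and 13.9 CPM, granulocyte-like cells 20.5, 15.5, 23.2 and 23.1, and monocyte-like cells 7.54, 6.72, 6.79 and 9.83. B-lymphoid-like cells had Bcl2l1 at 71.7, 53.01, 74.0 and 67.7 CPM, above granulocyte-like cells in each library.

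Among the effectors, Bax was highest in monocyte-like cells of the large classes, at 176, 205, 169 and 158 CPM, followed by HSC/MPP-like cells at 109, 132, 105 and 96.8. Granulocyte-like cells had Bax at 64.9, 91.5, 47.1 and 43.3 CPM. In each of these 3 classes the Mll3SI library was the highest and the Mll3/4SI library the lowest. Bak1, the other effector, stayed between 31.0 and 38.2 CPM in HSC/MPP-like and between 31.1 and 36.3 in granulocyte-like cells. Monocyte-like cells had Bak1 at 52.3, 48.2, 39.6 and 45.1 CPM, with Mll4SI lowest (log2 −0.39 [−0.54 to −0.26]).

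Each of the BH3-only genes had its own distribution over the classes. Bid, which caspase-8 cleaves to link death receptors to mitochondria, was at 79.0, 75.5, 71.6 and 62.7 CPM in monocyte-like cells and at 38.4, 38.3, 33.8 and 36.9 in HSC/MPP-like cells. Bcl2l11 was low in the large classes, at 13.7 to 15.5 CPM in HSC/MPP-like and 13.1 to 16.5 in granulocyte-like cells. T/NK-like cells had Bcl2l11 at 95.7, 175, 87.1 and 126 CPM, so the class highest for Bcl2 was also the highest for this antagonist in each library, on 10 to 56 UMIs. Bbc3 was at 11.3, 10.8, 12.9 and 9.36 CPM in HSC/MPP-like cells and at 2.02, 1.87, 2.56 and 3.09 in granulocyte-like cells, under the level read for ratios.

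Pmaip1 was barely detected in the 3 large classes, at 0.335 to 3.21 CPM in every library, and no ratio is read there. Dendritic-like cells were the exception. They had Pmaip1 at 30.2 CPM in control (16.9 to 49.9), 23.6 in Mll3SI (7.65 to 55.0) and 214 in Mll3/4SI (158 to 284). In Mll4SI 0 UMIs were seen in 14 cells, which allows up to 18.7 CPM. The Mll3/4SI value rests on 48 UMIs in 7 of 16 cells, with 24 in a single cell.

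The HSC/MPP-like class was made of clusters 9 and 16, led by Aff3 and Msi2 and by Angpt1 and Mecom, and 2 of the BH3-only genes, Bbc3 and Bcl2l11, differed between them in each library. Bbc3 was at 16.4, 17.8, 23.6 and 18.5 CPM in cluster 16 against 8.92, 7.18, 9.96 and 5.10 in cluster 9. Bcl2l11 was at 22.6, 20.1, 18.8 and 17.7 CPM in cluster 16 against 11.5, 13.2, 12.8 and 11.8 in cluster 9. In both genes all 4 values of cluster 16 lay above all 4 of cluster 9. Bid did not separate them (35.5, 41.0, 29.7 and 40.8 CPM in cluster 16, 39.7, 37.0, 34.97 and 35.2 in cluster 9), and Pmaip1 was at most 2.39 CPM in both. Bcl2 was close in the 2 clusters (392, 442, 436 and 292 CPM in cluster 16, 361, 400, 370 and 314 in cluster 9), and so was Mcl1. The survival gene Bcl2l1 also had all 4 values of cluster 16 (14.8, 16.1, 21.9 and 14.7 CPM) above those of cluster 9 (14.2, 11.1, 12.6 and 13.5). Its intervals overlapped between the clusters in every library but Mll4SI. Bbc3 within cluster 9 passed the limit in Mll3/4SI (log2 −0.70 [−1.46 to −0.20], 29 UMIs), where 1.91% of genes were called lower.

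Surface antibodies, which had no part in the clustering, split the HSC/MPP-like cells by Bcl2. Within each library these cells were cut into terciles by the share of their antibody UMIs that bound CD48, a protein low on the most primitive stem cells. Bcl2 went from 222 CPM in the lowest tercile to 530 in the highest in control. The step was from 250 to 568 in Mll3SI, 296 to 514 for Mll4SI, and 200 to 443 for Mll3/4SI. The log2 ratios of highest to lowest were 1.26 [1.16 to 1.36], 1.18, 0.79 and 1.14. All 4 libraries therefore had over 1.5 times more Bcl2 in the CD48-highest tercile.

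CD117, the protein encoded by Kit, gave the opposite order. Bcl2 was at 496, 561, 509 and 410 CPM in the CD117-lowest tercile and at 272, 306, 279 and 223 in the highest, with log2 ratios of −0.86, −0.87, −0.86 and −0.87. The antibodies are shares of 1 total, so a cell high in one is lower in the others. CD34 and CD16/32 (an Fc receptor) split the cells in opposite ways: Bcl2 was higher in the CD34-highest tercile (420, 508, 527 and 358 CPM, against 333, 302, 265 and 250 in the lowest) and lower in the CD16/32-highest tercile (297, 315, 315 and 246, against 440, 570, 509 and 379). Sca1 gave lower Bcl2 in its highest tercile in control, Mll3SI and Mll4SI (246, 265 and 295 CPM against 420, 475 and 422) but not in Mll3/4SI (314 against 295). The Sca1-lowest and CD34-lowest terciles were the deeper ones in each library. In control their median UMIs were 28254 against 16087 for Sca1 and 24823 against 19374 for CD34. The deeper tercile thus had less Bcl2 with CD34. The part of depth in these splits was not tested.

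Markers of other cell types moved with these splits. With CD48 the 10 lymphoid-primed markers summed to 410 CPM in the lowest and 905 in the highest tercile of control, 530 and 999 for Mll3SI, 323 and 535 for Mll4SI, and 317 and 869 for Mll3/4SI, with 0 of the 10 at 0. The 18 HSC/MPP markers went the other way (5147 and 3197 CPM in control), and so did the 16 granulocyte markers (9122 and 4524 in control, 37756 and 7753 in Mll4SI). With CD117 the lymphoid-primed markers summed to 926 CPM in the lowest and 408 in the highest tercile of control, 1138 and 460 for Mll3SI, 511 and 376 for Mll4SI, and 770 and 403 for Mll3/4SI, with 0 or 1 of them at 0. Monocyte markers were also higher in the CD117-lowest tercile of each library (541 against 263 CPM in control), and HSC/MPP markers lower (3230 against 4979). Lymphoid-primed sums in control were 791 CPM in the CD34-highest against 417 in the lowest tercile, 333 against 1026 for CD16/32 and 831 against 416 for Sca1. The part of these markers in the Bcl2 gradients was not tested. The CD48 ratio of Mcl1 lay between −0.15 and 0.08 in the 4 libraries. That of Bcl2l1 had a counting interval without 0 only for Mll3SI (−1.63 to −0.52), where its level was 10.02 CPM in the highest tercile against 21.0 in the lowest. For the other libraries, in the order above, it was −0.18, −0.31 and 0.40. Bax (0.20, 0.35, 0.34 and 0.19) and Bid (0.30, 0.67, 0.37 and 0.43) were higher in the CD48-highest tercile of each library. For Bax in Mll3/4SI the counting interval includes 0 (−0.05 to 0.44).

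**Figure D2:**
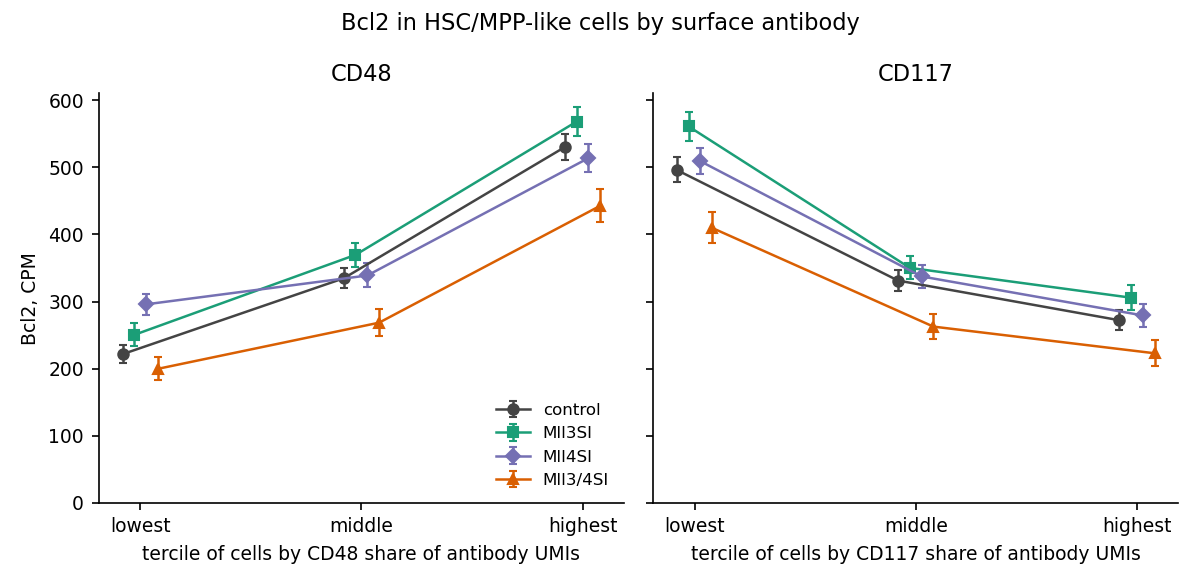
Bcl2 in CPM in HSC/MPP-like cells, cut within each library into terciles by the share of antibody UMIs from CD48 (left) or CD117 (right), with exact Poisson 95% intervals. Every library goes up with CD48 (222 to 530 CPM in control) and down with CD117 (496 to 272 CPM in control).

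In granulocyte-like cells 1 member passed the limit. Of the 7 members read, 0 were called in Mll3SI (background 1.85% in either direction), 0 in Mll4SI (background 11.0%) and 1, Bcl2, in Mll3/4SI (background 8.07%). Bcl2 was lower there by log2 −0.97 [−1.15 to −0.90], among 6.43% of genes called lower; in the cells that carried only the first of the 2 hashtags it was −0.56, within the limit. The median over the 7 members was 0.02, −0.20 and −0.08 in the 3 comparisons, against 0.01, −0.10 and −0.10 over all genes read. Bax lay just inside the limit in Mll3/4SI (log2 −0.57 [−0.65 to −0.52]), and Bid was at 32.7, 32.2, 22.0 and 22.5 CPM (log2 −0.02, −0.55 and −0.52). Bcl2l1 had ratios of −0.38, 0.18 and 0.17.

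**Figure D3:**
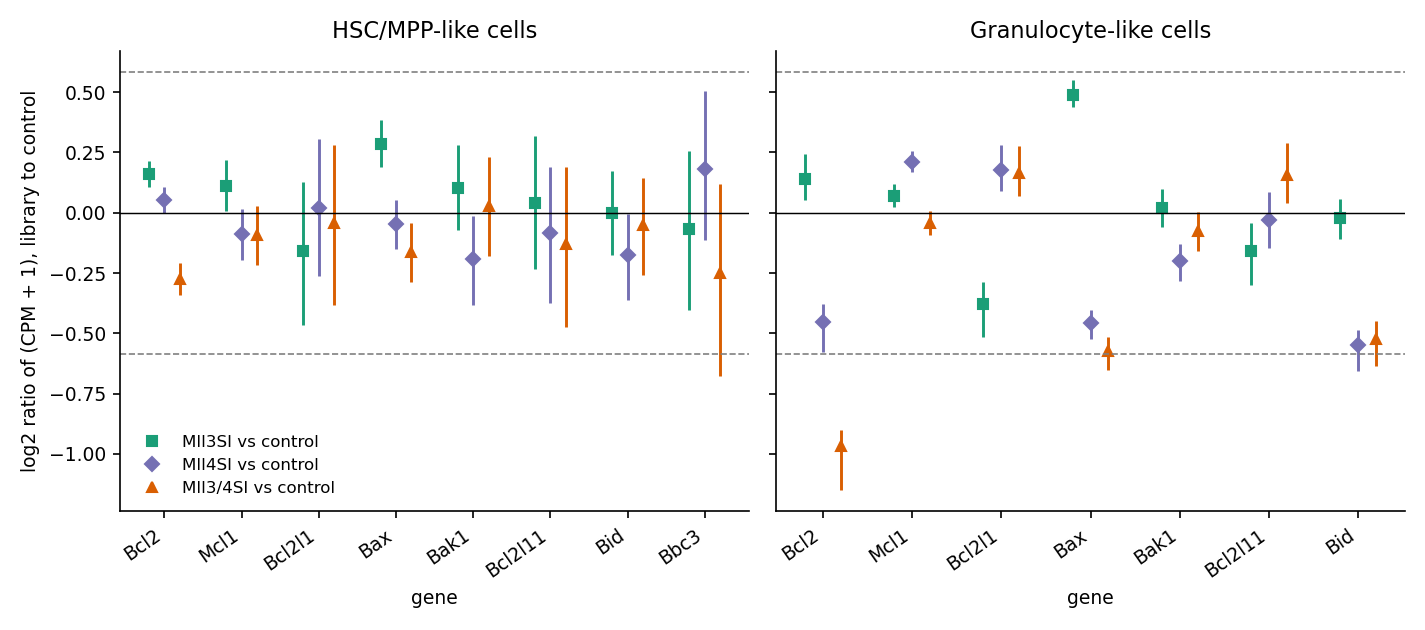
Log2 ratio of CPM + 1 to control for each member read in HSC/MPP-like (8 genes) and granulocyte-like cells (7 genes); points are ratios, lines exact 95% counting intervals of the ratio without the added 1, and dashed lines mark 1.5-fold. Bcl2 in Mll3/4SI granulocyte-like cells (−0.97) is the only point past a dashed line.

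These granulocyte-like values compare different clusters. Cluster 0 held 1597 of the control and 1633 of the Mll3SI cells but 57 and 75 in the other 2 libraries. Cluster 2 was nearly all Mll4SI (2760 of 2827 cells), and clusters 11 and 14 nearly all Mll3/4SI (1084 of 1205 and 1098 of 1102). With clusters left out where 1 library supplied more than 80% of the cells, Bcl2 in Mll3/4SI was at −0.40 and Bax at −0.01, so neither was near the limit. The class was also split into 3 ranges of the share of late granule genes, cut at 99.4% and 99.8%, with 70.9% to 91.7% of the cells within 5 percentage points of a cut. Genes called in either direction in Mll3/4SI were 22.8% of those read in the earliest, 4.51% in the middle and 4.03% in the latest range, against 8.07% in the whole class. In the earliest range Bcl2 was at 42.3, 35.9, 46.2 and 14.0 CPM (log2 −1.53 in Mll3/4SI, where 18.8% of genes were called lower), with ribosomal protein RNA at 16.8%, 14.6%, 15.1% and 10.4% of UMIs. In the middle range it was at 9.30, 9.85, 7.89 and 8.95, and in the latest at 7.95 to 11.4, with control highest. Bax in the earliest range was at 117, 126, 93.8 and 62.7 CPM, past the limit in Mll3/4SI (−0.88 [−0.97 to −0.81]). In the middle range control was the lowest library for Bax (29.7, 37.8, 35.6 and 31.5 CPM). In the latest range Mll3/4SI was again the lowest for Bax, within the limit (28.0, 33.5, 32.2 and 20.4 CPM).

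Clusters with at least 100 cells in every library, a comparison added after the data were seen, set cells of like expression side by side. Cluster 6, led by the primary granule genes Elane, Ctsg and Prtn3, had Bcl2 at 73.6, 68.4, 95.4 and 39.8 CPM. The Mll3/4SI ratio was −0.87 [−1.10 to −0.67], among 3.83% of genes called lower in this cluster. Cluster 8, with the same leading genes, had 36.0, 32.2, 39.2 and 25.7 CPM (−0.47 [−0.86 to −0.12] in Mll3/4SI). In the unnamed cluster 7, led by Prg2 and with Myc, Mpo and Myb among its leading genes, Bcl2 was at 192, 180, 187 and 124 CPM (−0.63 [−0.78 to −0.49] in Mll3/4SI, background 2.43% lower).

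The Mll3/4SI library was the lowest of the 4 for Bcl2 in HSC/MPP-like clusters 9 and 16, in monocyte-like clusters 5 (231, 229, 288 and 187 CPM) and 13 (211, 229, 253 and 195), and in clusters 6, 7 and 8. The size was past 1.5-fold in clusters 6 and 7, and −0.20 [−0.28 to −0.12] to −0.47 in clusters 5, 8, 9 and 16. In cluster 13 it was −0.11 [−0.23 to 0.00]. Cluster 15, led by Apoe, Car1 and Pf4 with basophil genes such as Mcpt8, went against it: Bcl2 was at 134, 185, 211 and 175 CPM, and the Mll4SI ratio of 0.66 [0.50 to 0.82] passed the limit (background 4.75% higher).

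Bcl2 was low in the other shared granulocyte-like clusters, at 4.52 to 13.3 CPM over clusters 1, 3, 4 and 12 in the 4 libraries. In clusters 1, 4 and 12 it was near the lower end of what these sums resolve. The cluster 4 value in Mll3SI (8.09 against 4.92 CPM, log2 0.62 [0.09 to 1.36]) was called higher beside a background of 1.6%, while cluster 12 in Mll3/4SI (4.52 against 7.86, −0.68 [−1.82 to 0.17]; background 3.34%) and cluster 1 in Mll3/4SI (5.54 against 8.83, −0.59 [−1.82 to 0.40]) were called lower with intervals that include 0. Differences of this size were not detectable at this depth in clusters 1 and 12.

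Bax was highest in the Mll3SI library in each of the 12 shared clusters, with ratios of 0.11 to 0.53 to control. Cluster 6 had Bax at 151, 180, 124 and 106 CPM and cluster 8 at 154, 174, 124 and 111. Mll3/4SI was lower by −0.51 [−0.65 to −0.38] and −0.47 [−0.65 to −0.30], and Mll3SI higher by 0.26 and 0.18, all within the limit. The lowest library was not the same throughout: it was control in cluster 3 (44.5, 55.02, 53.9 and 51.5 CPM), Mll4SI in cluster 7 and Mll3/4SI in the others, where it equalled control in cluster 16 (−0.00). In cluster 1 the Mll3/4SI value was past the limit (24.5 against 37.7 CPM, −0.61 [−1.14 to −0.12]; background 7.1% lower). Bid in cluster 6 was at 49.3, 50.5, 40.5 and 42.9 CPM, a smaller gap than in the class as a whole. In cluster 1, late cells led by Ifitm6 and S100a6, Bid was at 33.3 CPM in control, 33.2 in Mll3SI, 16.7 in Mll4SI (−0.96 [−1.35 to −0.64], background 7.2% lower) and 20.8 in Mll3/4SI (−0.66, with the same background as Bax). Bcl2l1 in cluster 6 was at 6.88, 9.53, 8.38 and 12.5 CPM, higher in Mll3/4SI by 0.78 [0.38 to 1.34] (background 3.4% higher).

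**Figure D4:**
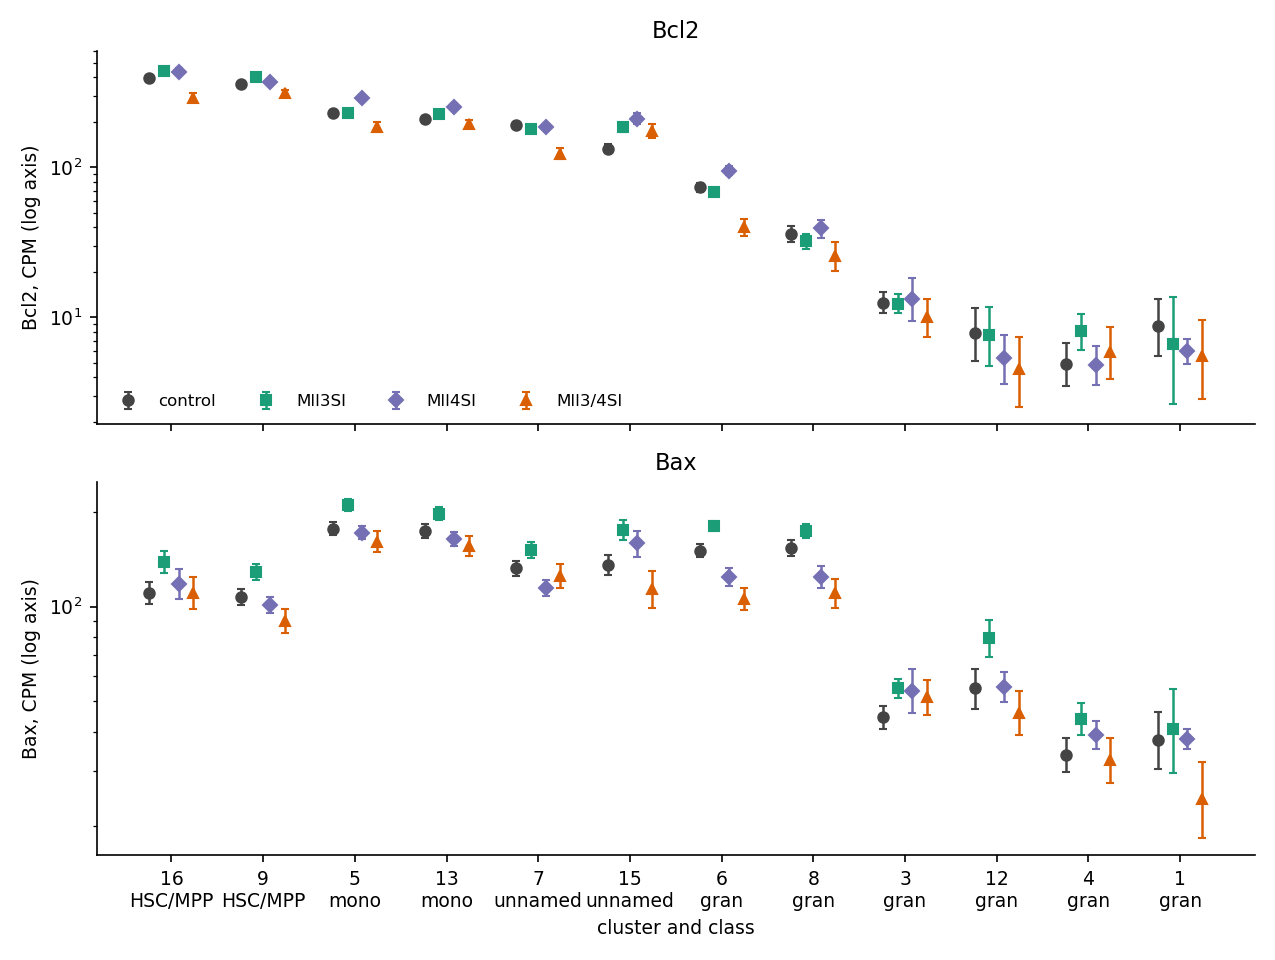
Bcl2 (top) and Bax (bottom) in CPM on log axes in the 12 clusters with at least 100 cells in every library, with exact Poisson 95% intervals. Bcl2 goes from 292 to 442 CPM in cluster 16 to under 14 CPM in clusters 3, 12, 4 and 1, with Mll3/4SI lowest in clusters 16, 9, 5, 13, 7, 6 and 8 and control lowest in cluster 15, and Mll3SI is the highest point for Bax in each cluster.

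In monocyte-like cells 0 of 8 members were called in Mll3SI, Mll4SI and Mll3/4SI, beside backgrounds of 0.902%, 3.43% and 2.56%. Bcl2 was higher in Mll4SI by 0.29 [0.23 to 0.35] and lower in Mll3/4SI by −0.21 [−0.30 to −0.13]. Bid was lower in Mll3/4SI by −0.33 [−0.48 to −0.19]. Erythroid-like cells, of which there were 87 to 187 per library, gave 1 call in Mll3SI (background 5.81%), 1 in Mll4SI (9.98%) and 2 in Mll3/4SI (9.77%). Bcl2l1, the survival gene known from erythroid cells, was at 12.6, 16.9, 22.6 and 21.4 CPM there, past the limit in Mll4SI (0.79 [0.30 to 1.38]) and Mll3/4SI (0.72 [0.19 to 1.32]). The calls of Bcl2l11 in Mll3SI (−0.63 [−1.54 to 0.07]) and of Bbc3 in Mll3/4SI (0.65 [−0.01 to 1.42]) had intervals that include 0.

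Clusters 10 and 19, led by Cpa3 and Fcer1a and left unnamed, held 1788 Mll3/4SI cells (26.5% of that library) and 4 cells of the other libraries, with Xist among the leading genes of both. They were set beside the HSC/MPP-like cells of the same library as a description. Bcl2 was at 25.2 CPM in them (23.8 to 26.8) against 307 in the HSC/MPP-like cells, a log2 ratio of −3.55 [−3.71 to −3.50]. That was the 0.139th percentile of the 10050 genes read, of which 6.01% were called lower. The gap depends on the cells chosen for comparison. In the same library Bcl2 was at 11.4 CPM in granulocyte-like cells, below these clusters, and at 175 CPM in cluster 15, above them. All 18 HSC/MPP markers were detected in these cells, at a sum of 2638 CPM against 3318. Lymphoid-primed markers were at 103 against 567 CPM, granulocyte markers at 21283 against 9255, and basophil and mast cell markers at 1589 against 925.

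No other member had a gap of that size. Mcl1 (102 against 94.6 CPM), Bax (106 against 96.8), Bak1 (37.0 against 36.2), Bid (41.0 against 36.9) and Bcl2l11 (12.2 against 13.7) had log2 ratios between −0.15 and 0.15. Bcl2l1 was at 24.4 against 13.9 CPM, past the limit at 0.77 [0.53 to 1.10] (background 6.15% higher), and Bbc3 at 13.9 against 9.36, within it at 0.52. Pmaip1 was at 7.03 CPM on 301 UMIs against 1.56 on 13. Over all kept cells of each library Bcl2 was at 117, 119, 102 and 53.4 CPM, a Mll3/4SI ratio of −1.12 (background 2.29% lower). Without these clusters it was at 65.5 CPM and −0.83. In such whole-library sums, fewer cells of a type and less RNA per cell cannot be told apart.

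**Figure D5:**
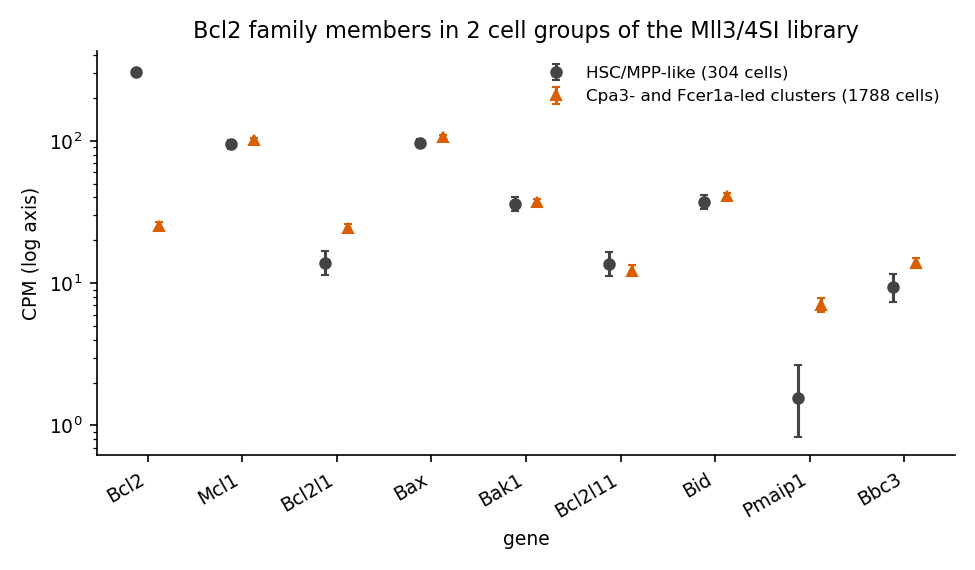
Levels of the 9 members in CPM (log axis) in HSC/MPP-like cells and in clusters 10 and 19 of the Mll3/4SI library, with exact Poisson 95% intervals. Bcl2 is the member with the wide gap (307 and 25.2 CPM), while Mcl1, Bax, Bak1, Bcl2l11 and Bid nearly coincide.

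The rest of the pathway was read from 3 lists. Of 16 other BCL2 family genes, 6 were read in HSC/MPP-like cells, and 1 was called: Bcl2l12, whose product restrains p53 and caspase-7, was at 48.9, 57.6, 51.6 and 26.0 CPM, lower in Mll3/4SI by −0.88 [−1.13 to −0.69] (background 1.74% lower). It was also lower in Mll3/4SI granulocyte-like cells (23.8 to 14.2 CPM, −0.70) and, noted after the values were seen, in monocyte-like cells (51.9 to 31.4, −0.71; background 1.07%). Of 18 caspases and inhibitors and 12 p53 pathway genes read in HSC/MPP-like cells, 0 were called in any comparison. The p53 list holds Bax, Bbc3 and Pmaip1.

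In granulocyte-like cells the calls fell on a few genes, with the cluster makeup given above. In the list of caspases and inhibitors, Htra2, a mitochondrial protease, was lower in Mll4SI (38.5 to 23.6 CPM, −0.68; background 8.74%), and the death receptor gene Fas was higher (5.20 to 10.7 CPM, 0.91; background 2.28%). Of 12 p53 pathway genes, Trp53 itself (53.1 to 34.7 CPM, −0.60) and Aen, a p53-induced nuclease (9.98 to 5.37 CPM, −0.79), were lower in Mll3/4SI, where 6.43% of genes were. Aen was also lower in Mll4SI (−0.94), where Trp53inp1, a p53 target, was higher (13.2 to 24.1 CPM, 0.82). In Mll3SI Trp53inp1 was lower (8.03 CPM, −0.66; background 1.03%) and no other gene of the lists was called. List medians lay between −0.16 and 0.09 in these cells.

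Over 33 sums of a class or unnamed cluster within a library, each of at least 50 cells, the genes nearest to each member were found by Pearson correlation of log2(CPM + 10) among 8761 genes. Bcl2 was nearest to Afap1l1 (r = 0.93), Nav1 and Mdn1, and Bax to Bccip (0.96), Srsf2 and Sf3b6. Bcl2l1 was nearest to Sdk1 (0.91), Bbc3 to Emilin2 (0.93), Bid to Mlkl (0.89), Bcl2l11 to Uvrag (0.83), Bak1 to Pgk1 (0.83), Pmaip1 to Trafd1 (0.80) and Mcl1 to Ppp1ca (0.78). Pmaip1 averaged only 1.77 CPM over these sums and Bbc3 8.16, both below the 10 added. Among the members, Bcl2 and Bax had r = 0.62 and Bcl2 and Bcl2l1 r = −0.60. The sums share libraries, depth and cell classes, so these values are descriptions with no p-value.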

How the data were processed

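RNA and antibody UMIs were read from 4 libraries, 1 per group. The deposited counts are whole UMI counts per gene and cell, made by the authors with Cell Ranger 7.1.0 on mm10, per the file headers and the submitters' processing notes. Cells with at least 500 genes, at least 1000 UMIs and at most 10% mitochondrial UMIs were kept, and the cells with the highest Scrublet scores were removed as doublets, 0.8% per 1000 cells. Cells were clustered with scanpy 1.11.5 and leidenalg 0.10.2 (2000 variable genes without the members and markers, 30 principal components, 15 neighbours, resolution 1). A cluster was named where at least 3 markers of a class were raised, 2 more than of any other, and no other class had more among its 10 leading genes; clusters with a median UMI count under 33.3% of their library's and no own marker among those genes stayed unnamed (cluster 20, 343 of its 348 cells from Mll3/4SI). Counts were summed per library and class and scaled to CPM. Ratios used CPM + 1, genes with a mean of at least 5 CPM and a 1.5-fold limit, with exact 95% counting intervals. Pooled animals, if any, and hashtag meaning are not given in the sources used here. The 9 members were named in every class with at least 50 cells in each library, and list genes where past the limit. The result of 1 list gene is not reported here. Members and lists were chosen with earlier results of these data known. The calls were tested on simulated counts, which held counting error but no spread between animals and no difference in cluster makeup. UMIs count molecules, so intervals cover counting error only.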

Additional observations from a re-analysis of the deposited data

Results flagged for a closer look

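Bcl2 in the Mll4SI library lay on opposite sides of control in 2 cell classes: the log2 ratio was 0.29 [0.23 to 0.35] in monocyte-like cells and −0.45 [−0.58 to −0.38] in granulocyte-like cells, a difference of 0.744. With 1 library per group the difference was not tested. In the granulocyte-like clusters 6 and 8, which all 4 libraries share, the Mll4SI ratio was 0.37 [0.23 to 0.52] and 0.12 [−0.15 to 0.39].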

How the results depend on the processing

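No paired analysis was possible because each group has 1 library, and no replicate could be left out. In 909 recomputed single-gene values, 671 stayed within the counting interval of the reported value. The sign was opposite in 117, among them 46 of the 512 values whose reported interval left out 0, of which 37 came from ranges or single clusters of granulocyte-like cells. Of the values past the limit, Bcl2 in Mll3/4SI granulocyte-like cells was 0.23 within cluster 4. Without clusters mostly of 1 library Bcl2 in Mll4SI was 0.46 and Bax 0.21, against −0.45 and −0.46 reported. Bax in Mll3/4SI granulocyte-like cells, −0.57, passed the limit in Hashtag2 cells (−0.67), at resolution 2 (−0.59), in the early range (−0.88) and in cluster 1 (−0.61), and was 0.21 in cluster 3 and 0.08 in the middle range. The count of members past 1.5-fold in HSC/MPP-like cells, 0 in each comparison, became 1 in Mll4SI in Hashtag2 cells. In Mll3/4SI it became 1 in Hashtag1 cells, 2 at Leiden resolution 2, and 2 with the unnamed single-library clusters or the Cpa3- and Fcer1a-led clusters counted in (Bcl2 −2.49 and −2.37). In granulocyte-like cells the count for Mll3SI, 0, became 1 in Hashtag1 cells and in clusters 4 and 12. For Mll4SI, 0 became 1 without doublet removal, in Hashtag2 cells, as a mean over cells and in cluster 1. For Mll3/4SI, 1 became 0 in Hashtag1 cells, in the middle and late ranges, without clusters mostly of 1 library, and in clusters 3, 4 and 8. It became 2 in Hashtag2 cells, at resolution 2 and in cluster 6, and 3 in the early range and in cluster 1. With the unnamed cluster 20 counted in it stayed 1 (Bcl2 −1.03). The cause was not tested. Depth limits Pmaip1 and, in granulocyte-like cells, Bbc3, which were under 5 CPM. The shared clusters and cluster 20 were chosen after seeing the data.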
